A study of Mus musculus with 6 samples.

Results

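Matrix metalloproteinases (MMPs) and their tissue inhibitors (TIMPs) were followed in the corpus of the mouse stomach, its main body with the acid-secreting glands, through 10 genes selected by symbol from 18988 rows of gene expression. They are 7 MMP genes (Mmp2, Mmp3, Mmp7, Mmp9, Mmp10, Mmp13 and Mmp14) and 3 TIMP genes (Timp1, Timp2 and Timp3), and all 10 had a row. The 10 were picked with their values in this comparison known, so their differences between the groups are given as a description and support nothing on their own. The other 14 MMP and TIMP rows are described beside them.

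RNA was sequenced from 3 control mice of the genotype Ras;APC FF (replicates 1 to 3) and from 3 mice of the genotype PGC;Ras;APC FF (replicates 4 to 6), each library from a single mouse. All 6 were on a C57BL/6 background, and both groups carried the components Ras and APC FF. PGC is what sets them apart, and the mice that have it are called PGC carriers here. Values of single libraries are given in the order of the replicates. What PGC and FF stand for is not given in the labels, which name no promoter or Cre line and give neither age, sex nor induction time. The tissue was whole corpus, so that fewer cells of a type and less RNA per cell cannot be told apart.

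MMPs are zinc endopeptidases that are made as inactive precursors and cut the proteins of the extracellular matrix, as well as cytokines, growth factors and adhesion proteins at the cell surface. Most are secreted, and a few are anchored in the membrane. TIMPs bind the active site of MMPs and block it, and Timp2 in addition links the Mmp2 precursor to membrane-bound Mmp14, which cuts and activates it. In the gut, stromal cells, leukocytes and epithelial cells each make different MMPs, and epithelial Mmp7 and Mmp10 are known from wounds and tumours.

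Expression is in FPKM as deposited, a unit in which fragment numbers are divided by the length of the gene and by the size of the library. Changes are mean log2(FPKM + 1) in PGC carriers minus that in controls, with the standard error (SE) from limma, and understate the change of genes near 0. Summed FPKM per library ranged from 664821 to 804774, and the number of reads behind them is unknown. Replicate 6 was the highest of the 6 libraries for 68.4% of the 11857 genes tested, and over all of these the log2 change had a median of 0.26. Control replicate 3 was the only library with Y-linked Eif2s3y above 0, and Xist was at 0 there, so by these genes sex was not balanced between the groups. Epithelial, parietal and chief cell markers were present in every library but differed between the groups. The epithelial markers (Epcam, Cdh1, Krt8, Krt18 and Krt19) summed to 2425 to 2821 FPKM in controls and to 4128, 4634 and 6254 FPKM in replicates 4 to 6. Each of the 5 lay above every control, as did 42.7% of all tested genes. The 5 parietal cell markers summed to 6492 to 7499 FPKM in controls and to 4959, 6271 and 1180 FPKM. Of these, 3 of the 5 lay below every control, as did 5.47% of all tested genes. The 4 chief cell markers summed to 155782 to 206540 FPKM in controls and to 106048, 94486 and 19856 FPKM. Most of this sum was Pgc in every library, and Pgc lay below every control. The other 3 (Gif, Bhlha15 and Chia1) overlapped between the groups, each highest of the 6 libraries in replicate 4 and lowest in replicate 6. Replicate 6, where most MMPs were highest, was thus the lowest for both gland cell types. None of these 14 markers passed the limma threshold described below with all 6 libraries, and 6 had an unadjusted p under 0.05, as had 35.4% of all tested genes. In the fit without replicate 6 (same genes tested), limma called 3 of the 5 epithelial markers higher and 1 parietal marker, Hrh2, lower. It called 0 of the 4 chief cell markers there, and 8.11% of all genes higher and 0.961% lower. The part of these markers in the MMP and TIMP values was not tested.

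Of the 10 genes, 4 (Mmp3, Mmp7, Mmp10 and Mmp13) lie in 1 cluster of MMP genes on chromosome 9. The promoters of the cluster are shown first because genes that lie side by side there differed widely in level. The motifs searched in them were chosen after the expression values were seen. The cluster spans 7272514 to 7699585 on chromosome 9 (GENCODE M21, GRCm38) and holds 10 MMP genes, in the order Mmp13, Mmp12, Mmp1b, Mmp3, Mmp1a, Mmp10, Mmp8, Mmp27, Mmp20 and Mmp7. Of these, 8 had a row, and Mmp1a and Mmp1b were not analysed here. The 100 bases before the RefSeq start of each of the 8 genes follow, 5′ to 3′ on the plus strand (GRCm38.p6), and capitals mark a match to the AP-1 motif TGACTCA or its reverse complement TGAGTCA.
Mmp13, chr9:7272414-7272513: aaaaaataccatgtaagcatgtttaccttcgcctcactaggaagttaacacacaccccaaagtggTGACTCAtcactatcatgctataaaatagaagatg
Mmp12, chr9:7347274-7347373: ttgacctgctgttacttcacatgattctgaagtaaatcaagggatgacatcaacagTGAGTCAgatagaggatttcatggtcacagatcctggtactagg
Mmp3, chr9:7445722-7445821: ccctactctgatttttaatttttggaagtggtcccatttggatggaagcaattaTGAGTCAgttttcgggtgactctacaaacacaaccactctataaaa
Mmp10, chr9:7502242-7502341: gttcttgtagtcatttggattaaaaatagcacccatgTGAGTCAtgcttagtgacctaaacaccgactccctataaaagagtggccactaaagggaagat
Mmp8, chr9:7558329-7558428: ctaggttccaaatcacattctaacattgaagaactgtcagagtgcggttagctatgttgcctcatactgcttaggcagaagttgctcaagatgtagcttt
Mmp27, chr9:7571296-7571395: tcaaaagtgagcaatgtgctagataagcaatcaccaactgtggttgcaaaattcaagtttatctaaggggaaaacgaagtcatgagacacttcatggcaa
Mmp20, chr9:7628131-7628230: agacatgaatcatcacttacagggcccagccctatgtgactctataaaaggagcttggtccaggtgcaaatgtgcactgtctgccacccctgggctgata
Mmp7, chr9:7691990-7692089: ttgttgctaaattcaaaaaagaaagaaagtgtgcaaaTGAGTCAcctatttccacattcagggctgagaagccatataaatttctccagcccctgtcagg

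The motif began 35 bases before the start in Mmp13, 44 in Mmp12, 46 in Mmp3 and 63 in both Mmp10 and Mmp7. All 5 of these genes reached 1 FPKM in at least 1 library. Mmp3 did so only in replicate 6 (4.1 FPKM) and did not reach 1 FPKM in at least 3 libraries, the filter used for testing. The other 3 measured genes of the cluster, Mmp8, Mmp27 and Mmp20, stayed at or under 0.24 FPKM in all 6 libraries, and their promoters (250 bases before to 50 after the start) held no match. Mmp1a and Mmp1b, which were not analysed here, held a match as well. Mmp12 and Mmp7 have a further RefSeq start each, not printed above, and those promoters held none. For Mmp12 the promoter without a match, 7344147 to 7344446, is the one that holds the GENCODE start of the gene, 7344381. Outside the cluster, 0 of the 11 measured MMP and TIMP genes with a promoter in the RefSeq table held a match, Mmp14, Timp1, Timp2 and Timp3 among them, and Mmp2 and Mmp9 are not in that table. Over all 32851 RefSeq promoters of the same length, 5.2% held the motif on either strand. A TCF motif, CTTTGAT or its reverse complement ATCAAAG, which does not overlap the AP-1 motif, was found in 1 of the 8 genes of the 10 with a promoter, Mmp7, and in 3.73% of all promoters. These matches describe letters in a window and do not show that a factor binds there.

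Of the 9 genes tested, the secreted Mmp10, Mmp7, Mmp9 and Mmp13, all under 1 FPKM in controls, had the highest log2 changes in the corpus of PGC carriers. Mmp10 (stromelysin 2, which cuts proteoglycans, fibronectin and other matrix proteins, on chromosome 9, 7502352 to 7510240, plus strand) had 0.09, 0.03 and 0.16 FPKM in the 3 controls, compared with 17.34, 5.09 and 56.5 FPKM in the PGC carriers. The lowest PGC carrier was over 5 FPKM while no control reached 0.2. Its log2 change was 4.09 ± 0.68 (SE, n = 3 each), and 7.60 with 0.01 instead of 1 added to FPKM. Mmp7 (matrilysin, a small MMP of glandular epithelium without the hemopexin domain, on chromosome 9, 7692090 to 7699585, plus strand) had a listed value of 0 in every control and 3.65, 1.66 and 36.46 FPKM in the PGC carriers. Replicate 6 alone held most of the Mmp7 signal. Its log2 change was 2.95 ± 0.84, and 1.81 ± 0.22 without replicate 6. With 0.01 added it was 9.24, above Mmp10, so the order of these 2 genes depends on the value added. No fold is given against controls at 0.

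Mmp13 (collagenase 3, which cuts fibrillar collagen, on chromosome 9, 7272514 to 7283331, plus strand) had 0.55, 0.41 and 0.72 FPKM in the 3 controls, compared with 6.23, 2.02 and 18.45 FPKM in the PGC carriers. The mean was 0.56 ± 0.155 (SD, n = 3) against 8.9 ± 8.53 FPKM, 15.9-fold, and 7.37-fold without replicate 6. Mmp9 (gelatinase B, which cuts denatured collagen and basement membrane collagen, on chromosome 2, 164940780 to 164955850, plus strand) showed 0.35, 0.37 and 0.36 FPKM in control corpus, whereas the PGC carriers had 10.12, 2.37 and 13.5 FPKM. Its mean was 24.1-fold higher, or 17.3-fold without replicate 6. The log2 changes were 2.27 ± 0.57 for Mmp13 and 2.59 ± 0.48 for Mmp9, and 3.47 and 4.22 with 0.01 added. In both genes replicate 5 was the lowest PGC carrier.

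Mmp3 (stromelysin 1, the closest relative of Mmp10, made mainly by stromal cells, on chromosome 9, 7445822 to 7455975, plus strand) differed from its neighbours in the cluster. It had 0.33, 0.06 and 0.19 FPKM in the 3 controls, compared with 0.3, 0.35 and 4.1 FPKM in the PGC carriers. Replicate 6 stood apart, while replicate 4 lay within the controls' range and replicate 5 just above it. Mmp3 was the 1 gene of the 10 that did not pass the filter on low values (1 FPKM in at least 3 libraries) and was not tested.

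**Figure D1:**
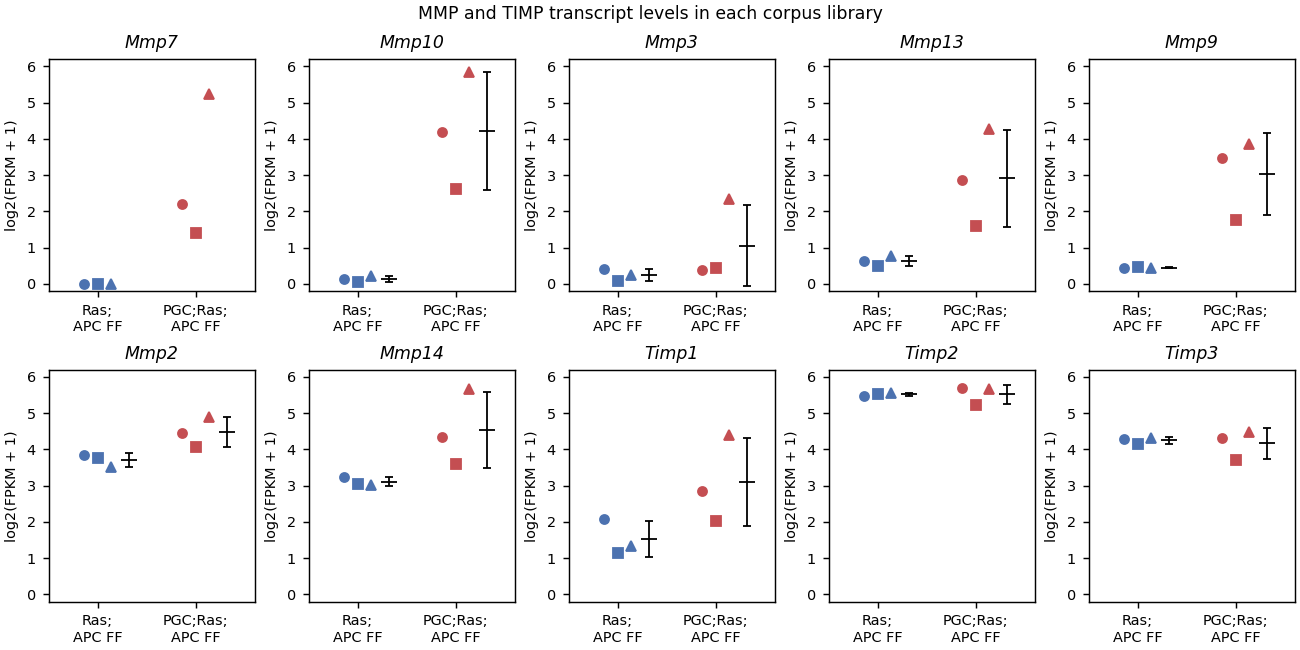
Level of each of the 10 MMP and TIMP genes as log2(FPKM + 1) in each library; blue points are the 3 Ras;APC FF mice (circle, square and triangle for replicates 1, 2 and 3), red points the 3 PGC;Ras;APC FF mice (replicates 4, 5 and 6), and black bars the mean ± SD, left out for Mmp7, which is listed at 0 in controls. Mmp7, Mmp10, Mmp13 and Mmp9 lie near 0 in all controls and above them in all 3 PGC;Ras;APC FF mice, with the triangle of replicate 6 on top, while Timp2 and Timp3 overlap.

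**Figure D2:**
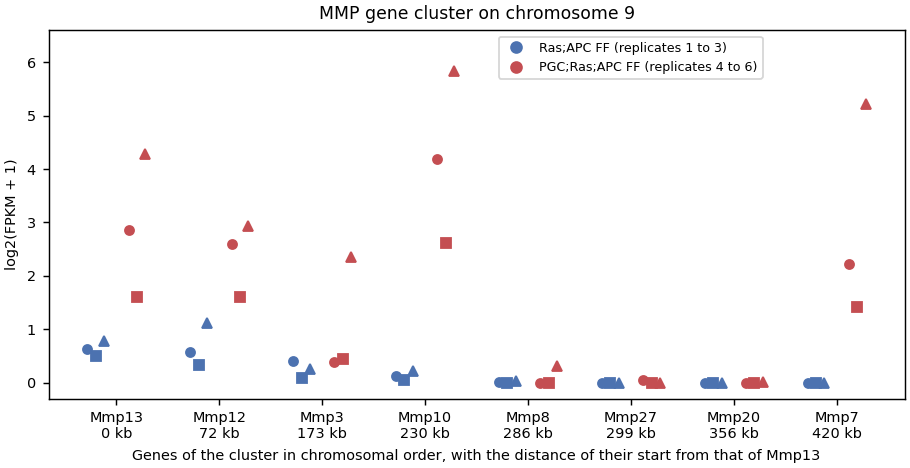
Levels of the 8 measured genes of the chromosome 9 MMP cluster in chromosomal order as log2(FPKM + 1), with the distance of each start from that of Mmp13 in kb; blue points are Ras;APC FF and red points PGC;Ras;APC FF mice, with symbols by replicate. Mmp8, Mmp27 and Mmp20, between Mmp10 and Mmp7, stay at or under 0.24 FPKM in every library, while Mmp10 reaches 56.5 and Mmp7 36.46 FPKM.

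Of the 10 genes, the MMPs with over 1 FPKM in every control, Mmp14 and Mmp2, were higher by smaller factors. Mmp14 (membrane type 1 MMP, a cell-surface collagenase that activates the Mmp2 precursor, on chromosome 14, 54431612 to 54445364, plus strand) had 8.49, 7.33 and 7.06 FPKM in the 3 controls, compared with 19.17, 11.14 and 50.04 FPKM in the PGC carriers. The groups did not overlap. The mean was 7.63 ± 0.760 against 26.8 ± 20.5 FPKM (SD, n = 3 each), 3.51-fold, and was 1.99-fold without replicate 6, with log2 changes of 1.43 ± 0.45 and 0.86 ± 0.21 (SE). Mmp2 (gelatinase A, a product of stromal cells, on chromosome 8, 92827291 to 92853420, plus strand) showed 13.42, 12.67 and 10.35 FPKM in control corpus, whereas the PGC carriers had 21.05, 15.69 and 28.6 FPKM. These groups did not overlap either, and the mean was 1.79-fold higher (log2 change 0.76 ± 0.22), or 1.51-fold without replicate 6. With total FPKM without the 50 most abundant genes as the scale, the log2 change of Mmp2 was 0.41.

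Of the 3 inhibitors, Timp1 had the largest difference between the groups, and the means of Timp2 and Timp3 were close. Timp1, the inducible TIMP of injured and inflamed tissue (chromosome X, 20870166 to 20874735, plus strand), had 3.25, 1.2 and 1.53 FPKM in the 3 controls, compared with 6.29, 3.09 and 20.16 FPKM in the PGC carriers. Replicate 5 lay below control replicate 1, so the groups overlapped. The mean was 4.94-fold higher, and 2.35-fold without replicate 6 (log2 changes 1.58 ± 0.55 and 0.93 ± 0.32, SE). Timp2, the constitutive inhibitor that also takes part in Mmp2 activation (chromosome 11, 118301069 to 118355740, minus strand), showed 43.45, 45.05 and 46.34 FPKM in control corpus, whereas the PGC carriers had 50.37, 36.19 and 49.41 FPKM. Its means were 44.9 ± 1.45 and 45.3 ± 7.92 FPKM (SD, n = 3 each), and the difference of -0.0030 ± 0.16 (SE) on the log2 scale lay well within the spread between mice. Timp3, which is held in the matrix and also inhibits ADAM proteases (chromosome 10, 86300372 to 86349506, plus strand), measured 18.55, 16.77 and 18.92 FPKM in the control mice, against 18.87, 11.96 and 21.43 FPKM in the PGC carriers, a log2 change of -0.087 ± 0.21. In Timp2 and Timp3 replicate 5 was the lowest of all 6 libraries. After median-of-ratios scaling between libraries, which brings the median of all genes to -0.0071, the log2 changes were -0.31 for Timp2 and -0.39 for Timp3, and neither passed.

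Some reads could belong to overlapping genes, since the sources used here do not say that counting used strand. Timp1 lies in an intron of Syn1 on the opposite strand, without shared exons, and Syn1 was between 0.82 and 1.77 FPKM in the 6 libraries, highest in a control. An exon of Timp3 overlaps one of Syn3 on the opposite strand, and Syn3 was between 0.3 and 0.46 FPKM. An exon of Mmp7 overlaps the antisense RNA gene AV064505, which was not analysed here.

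Because FPKM is scaled by gene length, levels can be set side by side between genes. In controls the order from high to low was Timp2, Timp3, Mmp2, Mmp14, Timp1, Mmp13, Mmp9, Mmp3, Mmp10 and Mmp7, and of neighbours in this order only Mmp3 and Mmp10 overlapped in range. In the PGC carriers the order by mean was Timp2, Mmp14, Mmp10, Mmp2, Timp3, Mmp7, Timp1, Mmp13, Mmp9 and Mmp3, and every pair of neighbours overlapped. Mmp10 thus stood at rank 9 of 10 by mean in controls and at rank 3 in the PGC carriers, or at rank 5 without replicate 6. Within the PGC carriers, 8 of the 10 genes were highest in replicate 6, then in replicate 4, then in replicate 5. The exceptions were Mmp3 and Timp2, and 41.5% of all tested genes had that same order.

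No member of the 10 passed the limma threshold (adjusted p under 0.05 over all 11857 tested genes), in either direction. Of all tested genes, 0.11% were called higher and 0.0422% lower. Of the 10 genes, 9 were tested, and 7 of these had an unadjusted p under 0.05, as had 35.4% of all tested genes. Their adjusted p ran from 0.085 to 0.99. Their median log2 change was 1.58, against 0.26 over all tested genes. Each library of a PGC carrier lay above every control in 6 of the 9, and in 42.7% of all tested genes, while 5.47% lay wholly below. Mmp7, Mmp9, Mmp10 and Mmp13 were under 1 FPKM in every control and passed the filter only through the PGC carriers, so that they had to lie above. All 167 tested genes of that kind did. Without replicate 6, and with the tested genes kept as they were for 6 libraries, limma called 5 of the 9 higher (Mmp7, Mmp9, Mmp10, Mmp13 and Mmp14, adjusted p from 0.015 to 0.046) and 0 lower. In that fit 8.11% of all genes were called higher and 0.961% lower, and with the filter applied to the 5 libraries left, Mmp14 was called of the 5 genes tested. Without replicate 5 and with the same genes tested, 7 of the 9 were called higher, that is all but Timp2 and Timp3, and 0 lower, where 4.55% of all genes were called higher and 0.388% lower. An exact test of 3 mice against 3 cannot give a two-sided p under 0.1.

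Of the other MMP and TIMP rows, 7 of 14 were tested and 0 passed the limma threshold (lowest adjusted p 0.085). Of the 7, 4 had an unadjusted p under 0.05, as had 35.4% of all tested genes. Their median log2 change was 0.39. Mmp15, a membrane-type MMP, was the most abundant MMP in every library, with 43.82, 49.31 and 54.07 FPKM in the control mice, against 66.57, 57.58 and 97.52 FPKM in the PGC carriers. Mmp12, the macrophage elastase and a neighbour of Mmp13 in the cluster, had 0.48, 0.25 and 1.18 FPKM in the 3 controls, compared with 5.01, 2.05 and 6.66 FPKM in the PGC carriers, without overlap. Mmp28 (epilysin, an MMP of epithelia) showed 5.64 to 6.45 FPKM in control corpus, whereas the PGC carriers had 10.05, 7.14 and 16.43 FPKM. Mmp17, a membrane-type MMP held by a lipid anchor, lay lower in the PGC carriers, with 1.03, 0.93 and 0.65 FPKM there and 1.66, 1.38 and 1.69 FPKM in the control mice. Timp4, which was not tested, was also below every control, at 0.91 to 1.24 FPKM in controls and 0.82, 0.84 and 0.35 FPKM in the PGC carriers. Mmp23, Mmp11 and Mmp19 overlapped between the groups, at means of 6.64, 2.05 and 0.87 FPKM in controls and 7.34, 2.23 and 1.47 FPKM in the PGC carriers. The remaining 6 rows (Mmp8, Mmp16, Mmp20, Mmp24, Mmp25 and Mmp27) stayed under 1 FPKM in every library.

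Summed over all 20 MMP rows, the level was 85.0, 88.5 and 91.4 FPKM in the controls and 171.1, 116.4 and 342.8 FPKM in replicates 4, 5 and 6. Mmp15 made up 51.6%, 55.7% and 59.1% of this sum in controls and 38.9%, 49.5% and 28.4% in the PGC carriers. Mmp3, Mmp7, Mmp9, Mmp10 and Mmp13 together made up 1.55%, 0.983% and 1.56% in controls and 22.0%, 9.87% and 37.6% in replicates 4 to 6. They are the MMP genes of the 10 that were under 1 FPKM in every control, so their small share there follows from the grouping. The share of Mmp2 and Mmp14 together overlapped between the groups, with 19.0% to 25.8% in controls and 22.9% to 23.5% in the PGC carriers. Scaling between libraries does not enter these shares, since they are taken within a library.

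**Figure D3:**
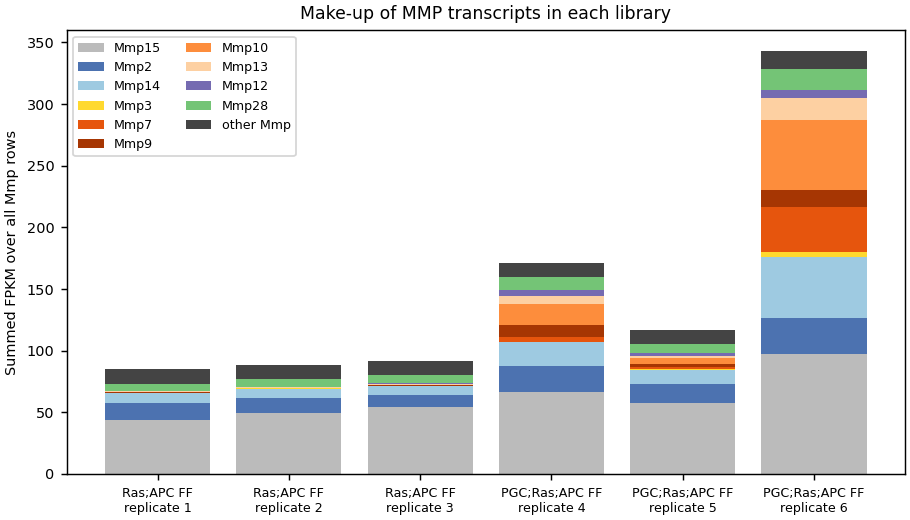
Summed FPKM over all 20 MMP rows in each library, stacked by gene, with genes not named in the legend joined as other Mmp. The 3 controls reach 85.0 to 91.4 FPKM and consist mainly of Mmp15, Mmp2 and Mmp14, while the orange and brown layers of Mmp7, Mmp9 and Mmp10 are thick in replicates 4 and 6 and thinner in replicate 5.

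Ratios within a library, which no scaling between libraries can alter, were taken for 3 pairs of proteins known to bind each other. Mmp2 over Timp2 was 0.309, 0.281 and 0.223 in controls and 0.418, 0.434 and 0.579 in the PGC carriers. The groups did not overlap, and the difference in log2 ratio was 0.81. Mmp14 over Timp2 was 0.195, 0.163 and 0.152 in controls and 0.381, 0.308 and 1.01 in the PGC carriers (log2 difference 1.54). In replicate 6, Mmp14 transcripts were about level with those of Timp2 per length. Mmp9 over Timp1 was 0.108, 0.308 and 0.235 in controls and 1.61, 0.767 and 0.670 in the PGC carriers (log2 difference 2.24). Here replicate 4, not 6, was the highest. For all MMP rows over all 4 TIMP rows, the ratio of summed FPKM was 1.28, 1.38 and 1.34 in controls and 2.24, 2.23 and 3.75 in replicates 4 to 6. RNA ratios do not measure active enzyme or free inhibitor.

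**Figure D4:**
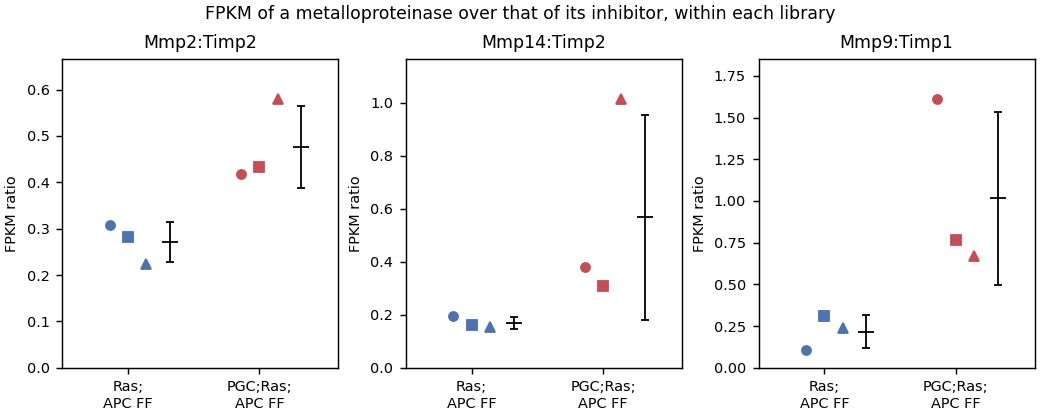
Ratio of FPKM of Mmp2 to Timp2, Mmp14 to Timp2 and Mmp9 to Timp1 within each library, on linear axes that start at 0; blue points are the Ras;APC FF and red points the PGC;Ras;APC FF mice (symbols by replicate), and black bars the mean ± SD. In all 3 pairs each red point lies above each blue point, with Mmp2 to Timp2 at 0.223 to 0.309 in controls and 0.418 to 0.579 in PGC;Ras;APC FF.

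The plasminogen system, whose serine protease plasmin activates several MMP precursors, was described with a list of 11 genes. Of these, 9 were tested, 0 passed the limma threshold in either direction, and the median log2 change was 1.25. An unadjusted p under 0.05 was found for 6 of the 9, against 35.4% of all tested genes, and all 9 had a positive log2 change, as had 80.6% of all tested genes. By abundance, the genes to name were Anxa2, S100a10 and Plgrkt, and the others named here were chosen after their values were seen. Plat (tissue plasminogen activator) had 3.66, 3.55 and 4.31 FPKM in the 3 controls, compared with 25.44, 10.46 and 72.37 FPKM in the PGC carriers. Plaur, the receptor of the urokinase-type activator, showed 5.67, 9.6 and 10.62 FPKM in control corpus, whereas the PGC carriers had 15.18, 22.74 and 79.75 FPKM. Plau, the urokinase-type activator, measured 3.93 to 4.41 FPKM in the control mice, against 9.36, 8.81 and 17.82 FPKM in the PGC carriers. Anxa2 and S100a10, which form a cell-surface complex that binds plasminogen, were at means of 87.5 and 21.0 FPKM in controls and 366.6 and 77.2 FPKM in the PGC carriers. These means were 4.19-fold and 3.68-fold those of controls, or 2.19-fold and 1.90-fold without replicate 6. In S100a10 the groups overlapped, with 28.36 FPKM in replicate 5 and 29.5 FPKM in control replicate 3. Plgrkt, a plasminogen receptor, overlapped between the groups, at 23.13 to 36.13 FPKM in controls and 28.55 to 37.82 FPKM in the PGC carriers. Plg, plasminogen itself, stayed at or under 0.17 FPKM in every library. Without replicate 6, 4 of the 9 were called higher by limma, against 8.11% of all genes.

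Regulators of MMPs varied widely around a median log2 change of 0.17, with 0 of 8 past the limma threshold. An unadjusted p under 0.05 was found for 4 of the 8, against 35.4% of all tested genes. Bsg, Furin and Lcn2 were the most abundant over the 6 libraries, and Cd44, Cav1 and Reck were named after their values were seen. Lcn2, a siderophore-binding protein that also forms a complex with Mmp9, had 1.3, 0.64 and 1.49 FPKM in the 3 controls, compared with 56.73, 13.47 and 291.2 FPKM in the PGC carriers. Cd44, a hyaluronan receptor that holds MMPs at the cell surface, showed 2.36 to 3.14 FPKM in control corpus, whereas the PGC carriers had 7.25, 5.35 and 51.78 FPKM. Reck, a membrane-anchored MMP inhibitor, was at means of 2.00 and 1.5 FPKM and overlapped between the groups. Bsg (an inducer of MMPs), Furin (a convertase that activates Mmp14) and Cav1 had means of 488, 213 and 28.9 FPKM in controls and of 691, 196 and 16.6 FPKM in the PGC carriers, and in Furin the groups overlapped. Without replicate 6, 2 of the 8 were called higher and 1 lower, against 8.11% and 0.961% of all genes.

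ADAM and ADAMTS proteases, the relatives of MMPs that shed surface proteins and cut proteoglycans, had 0 of 11 tested genes past the limma threshold and a median log2 change of 0.32, near that of all genes. Adam10 was at 32.3 ± 2.88 and 43.3 ± 7.93 FPKM (SD, n = 3 each), Adam9 at 27.8 ± 2.19 and 33.2 ± 4.21 and Adam15 at 19.96 ± 1.71 and 23.8 ± 2.42. Genes of MMP substrates also had 0 of 10 past the threshold, with a median of 0.42. Among them Cdh1 (E-cadherin) was at 145 ± 19.3 FPKM in controls and 223 ± 27.2 in the PGC carriers, Spp1 (osteopontin) at 71.6 ± 47.2 and 155 ± 21.5, and Col3a1 at 58.2 ± 6.59 and 66.6 ± 5.58. Of the tested genes, 6 of 11 and 6 of 10 had an unadjusted p under 0.05, against 35.4% of all tested genes. Without replicate 6, limma called 0 genes of either list, against 8.11% higher and 0.961% lower over all genes. In that fit 5 and 6 had an unadjusted p under 0.05, against 3804 of all 11857 tested genes.

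**Figure D5:**
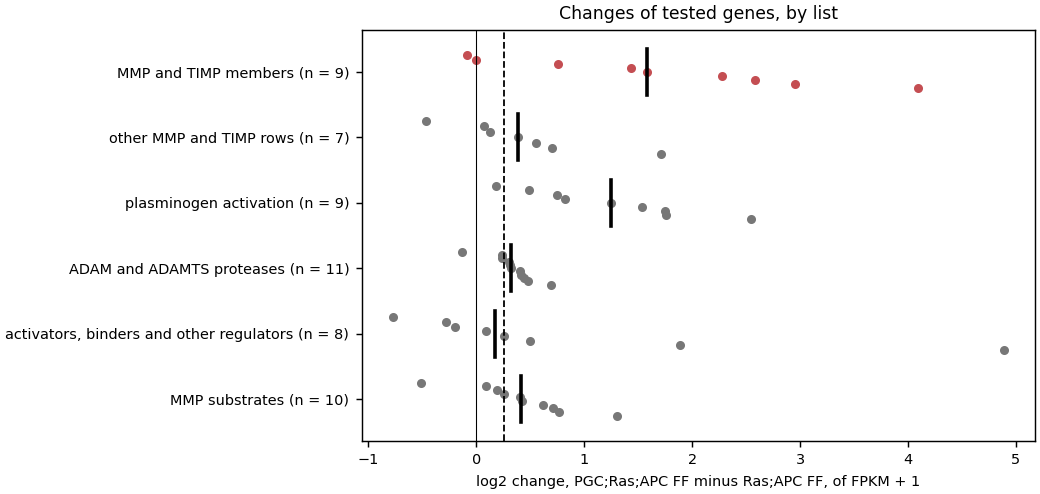
Log2 change of FPKM + 1 (PGC;Ras;APC FF minus Ras;APC FF) of each tested gene by list, with the median of each list as a black bar and the median of all tested genes, 0.26, as a dashed line. The medians of the 9 tested MMP and TIMP members (1.58) and of the plasminogen genes (1.25) lie to the right of the dashed line, and the largest single value is that of Lcn2 among the regulators.

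By the root mean square difference of their log2 profiles over the 6 libraries, each taken relative to its mean in controls, the genes most like Mmp10 among 11856 others were Cldn4 (0.087), Alox15 (0.26) and Gulo (0.29). Cldn4, a claudin of tight junctions, had 0.15, 0.09 and 0.06 FPKM in the 3 controls, compared with 19.13, 5.14 and 57.51 FPKM in the PGC carriers, close to Mmp10 in each PGC carrier. Among those most like Mmp7 were Sftpd (0.16) and Dmbt1 (0.32), and among those most like Mmp9 were Pla2g2f (0.073) and Apcdd1 (0.13). Dmbt1, a secreted epithelial defence protein, showed 11 to 18.02 FPKM in control corpus, whereas the PGC carriers had 67.67, 38.84 and 797 FPKM, a profile with the same excess in replicate 6 as Mmp7. Apcdd1, an inhibitor of Wnt signalling, measured 1.74 to 2.09 FPKM in the control mice, against 19.79, 6.38 and 34.92 FPKM in the PGC carriers. Among the members themselves, Mmp13 was the closest to both Mmp7 (0.68) and Mmp9 (0.38).

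Markers of cell types, among them cells that make MMPs, are described by their summed FPKM. Neutrophils store Mmp8 and Mmp9. Of 10 neutrophil markers with a row, 5 stayed under 1 FPKM in every library (Cxcr2, Ngp, Camp, Mpo and Ly6g), and the sum of the 10 was 0.69, 0.89 and 4.49 FPKM in controls, 1.21 and 1.9 FPKM in replicates 4 and 5 and 191.3 FPKM in replicate 6. In replicate 6, 141.4 FPKM of that sum was Ltf (lactoferrin, which glandular epithelium also makes), 22.65 was S100a9 and 15.46 was S100a8. Mmp9 was at 10.12, 2.37 and 13.5 FPKM in replicates 4 to 6, and the part of neutrophils in these values was not tested. The 8 macrophage markers summed to 120 to 206 FPKM in controls and to 281, 169 and 480 FPKM in replicates 4 to 6, the order that 8 of the 10 genes and 41.5% of all tested genes had. Of the 8 markers, 0 passed the limma threshold and 4 had an unadjusted p under 0.05, against 35.4% of all tested genes. The 7 fibroblast markers summed to 208 to 211 FPKM in controls and to 297, 207 and 355 FPKM, again in that order, and replicate 5 lay just below the lowest control. Smooth muscle markers summed to 1897 to 3438 FPKM in controls and 1269, 1108 and 860 FPKM in the PGC carriers. All 6 lay below every control, as did 5.47% of all tested genes. Of the 6, 0 passed the limma threshold and 6 had an unadjusted p under 0.05, against 35.4% of all tested genes. In the fit without replicate 6, 4 of the 6 were called lower, against 0.961% of all genes. Endothelial markers summed to 23.1 to 27.6 FPKM in controls and 23.9 to 26.5 FPKM. Mmp7 is known from Paneth cells of the intestine. Of 6 Paneth markers, Lyz1 had 2.67 to 5.85 FPKM in the 3 controls, compared with 8.82, 4.69 and 28.9 FPKM in the PGC carriers. Itln1 had 0.65, 0.93 and 0 FPKM in controls and 0.78, 4.07 and 7.38 FPKM in the PGC carriers. Defa22 was listed at 0 in every control and at 0.52, 0.07 and 1.71 FPKM in the PGC carriers. Defa17, Defa24 and Ang4 stayed under 1 FPKM in every library. The sum of the 6 was 3.64 to 5.85 FPKM in controls and 8.83 to 38.6 FPKM in the PGC carriers. Squamous epithelium markers summed to 0.25 to 0.9 FPKM in controls and 3.03 to 5.07 FPKM in the PGC carriers. Most of the sum in the PGC carriers was Krt13, with 2.34, 3.01 and 4.63 FPKM. Krt5, Krt14, Krt4 and Trp63 stayed under 1 FPKM in every library. The mast cell markers summed to 24.4 to 89.0 FPKM in controls and 119 to 265 FPKM in the PGC carriers. Most of this sum was Mcpt1 and Mcpt2, while Kit lay below every control. Cpa3, which spanned 2.79 to 6.41 FPKM among controls, exceeded that range in replicate 4 (10.01 FPKM) and replicate 5 (17.41 FPKM). Only replicate 6 (1.79 FPKM) fell below the Cpa3 range of controls. The part of these cell types in the MMP and TIMP values was not tested.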

How the data were processed

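Deposited values were FPKM per gene and library, which the authors computed and gave to 2 decimals, per the file headers. The submitters' processing notes name STAR, featureCounts and the mouse build mm10. Their versions, the gene annotation and how FPKM was computed are not stated in the sources. Low values did not fall on steps of whole reads, so no reads were recovered, the depth is unknown, and no counting interval is given. Nothing says how the mice were chosen. The p-values set the difference between the groups against the spread between these mice within a group, which limma moderates with that of all tested genes.

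Rows with at least 1 FPKM in at least 3 of the 6 libraries (11857 of 18988) were tested as log2(FPKM + 1) with limma 3.58.1 (R 4.3.3, eBayes with trend, genotype as the only term, two-sided). P-values were Benjamini-Hochberg adjusted over the 11857 genes and called under 0.05. The 10 genes and all lists were chosen with earlier results of these data known. Genes named were the 10, the other MMP and TIMP rows, the genes past the threshold in each list or else its 3 most abundant, and the 3 genes most like each of the 3 members with the largest change, and some genes that this rule names are not reported here. Coordinates are from GENCODE M21 (GRCm38) and promoters from RefSeq (GRCm38.p6), both matched by symbol. Other pseudocounts, filters and scalings, and leaving out each library, were tried.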

Additional observations from a re-analysis of the deposited data

How the results depend on the processing

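No paired analysis was possible because the groups share no replicate numbers. Of the 10 genes, 0 were called higher as reported, with 2 at a pseudocount of 0.1 (Mmp9 and Mmp10) and 3 at 0.01 (Mmp7, Mmp9 and Mmp10). They were 0 to 7 when 1 library was left out, with 0 without any 1 control or without replicate 4, and 0 were called lower in any setting run. Testing the same 11857 genes after leaving out a library was a setting chosen after seeing the data. Over all genes, 13 were called higher and 5 lower as reported. The higher calls numbered 29 and 34 at pseudocounts of 0.1 and 0.01 and 3 with no filter. The lower calls numbered 10 with median-of-ratios scaling, 13 with quantile normalization and 10 with the total without the 50 most abundant genes. Leaving out 1 library gave 0 to 832 higher and 0 to 106 lower with the filter reapplied, and 0 to 962 higher and 0 to 114 lower with the same genes tested (540 and 46 without replicate 5). The cause of these shifts was not tested. Mmp2, Mmp7, Mmp9, Mmp10, Mmp13, Mmp14 and Timp1 had a positive log2 change in every setting that tested them. For Mmp7, Mmp9, Mmp10 and Mmp13, which passed the filter only through the PGC carriers, that sign carries no weight. Timp2 turned from -0.0030 to 0.019 without control replicate 3 and to 0.15 without replicate 5 (lowest with 1 library left out -0.085, without replicate 4), and Timp3 from -0.087 to 0.15 without replicate 5 (lowest with 1 left out -0.25, without replicate 6). With the total without the 50 most abundant genes they were -0.36 and -0.44, the lowest of all settings run. With 1 library left out, the log2 differences of Mmp2 to Timp2, Mmp14 to Timp2 and Mmp9 to Timp1 were 0.66 to 0.91, 1.02 to 1.88 and 1.80 to 2.56.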

Other observations

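Some genes of leukocytes, picked after their values were seen, were highest in replicate 6, as were 9 of the 10 MMP and TIMP genes and 68.4% of all tested genes. Other neutrophil genes were not: Ngp and Mpo were at 0 FPKM there, and Camp was at 0.05 FPKM against 0.1 FPKM in control replicate 3. Mmp8, the collagenase of neutrophils, was at 0.24 FPKM in replicate 6 and at or under 0.02 FPKM elsewhere. Mmp25, a membrane-bound MMP of leukocytes, was at 0.57 FPKM in replicate 6, 0.23 FPKM in replicate 4 and at or under 0.1 FPKM elsewhere. Adam8, a leukocyte surface protease, was at 4.3 FPKM in replicate 6, 1.27 FPKM in replicate 4 and 0.66 FPKM in replicate 5, against 0.26 to 0.44 FPKM in controls. Csf3r, the receptor of a neutrophil growth factor, was at 2.86 FPKM in replicate 6 and at or under 0.41 FPKM elsewhere. These values are low, and as the depth is unknown their counting error cannot be given.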
